A study of Mus musculus with 48 samples.

Results

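The subject is a set of 9 genes of the thioredoxin system and of detoxification under the transcription factor NRF2, measured in mouse macrophages exposed to AP-3-84, a compound that the labels give by its code name alone. The genes were chosen by symbol and not by a cut on measured values, but with earlier results of these data known. They are Srxn1, Txnrd1, Txn1, Prdx1, Nqo1, Osgin1, Sqstm1, Nfe2l2 and Keap1. Each matched 1 of the 51789 gene IDs of the count table, and all 9 passed the filter on low counts. Sequencing from the 3′ end of mRNA covered 48 libraries in 16 groups of 3: 8 macrophage populations, each with 10 µM AP-3-84 or an equal volume of DMSO (vehicle) for 4 h.

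All samples are labelled as strain C57BL/6. Ascites macrophages are F4/80+ cells, sorted on magnetic beads from peritoneal washes 45 days after injection of ID8 ovarian tumour cells, and their genotype is given as B6(Cg)-Tyrc-2J/J. Thioglycolate macrophages are F4/80+ cells sorted in the same way from B6 mice 4 days after an injection of 1 ml of 3% thioglycolate, and their genotype is given as wild-type. Bone marrow-derived macrophages were grown for 6 days with M-CSF at 10 ng/mL and are called M0 without further stimulation. The M1 state followed 24 h with LPS at 100 ng/mL and IFN-γ at 50 ng/mL, and the M2 state 24 h with 10 ng/mL of both IL-4 and IL-13. They came from wild-type (WT) or p53 knockout (KO) mice according to titles, descriptions and the series design, whereas their genotype label reads wild-type throughout. The labels do not say how p53 was deleted, and nothing in them says that the 3 libraries of a group came from separate mice or cultures, so p-values measure only the spread between these libraries, which may be technical.

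NRF2, encoded by Nfe2l2, is held at a low level by KEAP1, an adaptor that senses electrophiles and oxidants through its cysteines and delivers NRF2 for degradation. When KEAP1 is modified, NRF2 escapes, pairs with a small MAF protein and binds antioxidant response elements near genes that restore reduced thiols and clear reactive compounds. In macrophages this programme is known for limiting oxidative damage and for damping inflammatory gene expression. Much of its control acts on the NRF2 protein, which RNA counts do not measure.

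Promoter sequence is shown for the genes in which the core of an antioxidant response element, TGACNNNGC, was found on either strand. The windows searched run from 250 bases before to 50 bases after a RefSeq start, in the GRCm38.p6 table. All 9 genes had an entry there, with 11 promoters in all, and the element was found for 4 genes. Capitals mark the match, and each line is the 29-base window on the gene's own strand.
Nfe2l2, start of the match 240 bases before the start site: tcagcccaccTGACTCCGCcatgccccgg
Prdx1, start of the match 133 bases before the start site: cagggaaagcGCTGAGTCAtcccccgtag
Txnrd1, start of the match 92 bases before the start site of 1 of its 3 promoters: ctggatttttGCTTTGTCAttctgacacg
Srxn1, start of the match 28 bases after the start site: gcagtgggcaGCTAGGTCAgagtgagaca
The windows lie at chr2:75704885-75704913 (Nfe2l2, minus strand), chr4:116685456-116685484 (Prdx1, plus strand), chr10:82859104-82859132 (Txnrd1, plus strand) and chr2:152105542-152105570 (Srxn1, plus strand). In Prdx1, Txnrd1 and Srxn1 the letters read as the reverse complement of the element. The same 9 letters occur in 4071 of 32851 mouse promoters of that length (12.4%). The full form TGACTCAGC, which overlaps the core, is in 0.454% of them and in Prdx1 alone among the 9 genes. The letters were not found in the windows of Txn1, Nqo1, Osgin1, Sqstm1 and Keap1, which says only that they are not in these 300 bases.

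Depth, cell markers and genotype were examined before the 9 genes. Library totals were 15532373 to 19417581 counts in the peritoneal populations and 3081707 to 4645148 in the bone marrow-derived ones, so low genes are less well measured in the latter. Macrophage markers were detected in every library, 8 of 8 genes each time, at summed levels that were lower in KO than in WT vehicle libraries in M1 and M2, as given with those comparisons. Trp53 itself was at 9.20 to 13.2 CPM (depth-scaled counts, with TMM factors) in WT M0 and 3.14 to 6.49 in KO M0 vehicle libraries, and the ranges of WT and KO overlapped in M1 and in M2. A 3′ tag can lie outside the deleted part of a gene, so this does not test the deletion. Cdkn1a, a p53 target encoding the cell cycle inhibitor p21, separated the genotypes, at 803 to 1114 CPM in WT M0 and 34.1 to 45.7 in KO M0, 609 to 719 in WT M1 and 196 to 252 in KO M1, and 777 to 1115 in WT M2 and 55.5 to 142 in KO M2 vehicle libraries.

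Some libraries stood apart from their group. Replicate 1 of WT M2 vehicle had a mean correlation of 0.934 with its mates and 4230 CPM of neutrophil markers (7 genes), against 499 to 618 in the other libraries of the group. Replicate 3 of KO M0 with AP-3-84 had a mean correlation of 0.921, the lowest of all 48 libraries, and replicate 2 of that group had 0.934. Replicate 1 of KO M2 vehicle had 0.938. Neutrophil markers were also high in replicate 3 of KO M2 vehicle (3381 CPM, against 422 and 724 in its mates) and in replicate 1 of KO M1 with AP-3-84 (3790, against 952 and 1088). Where leaving out one of these libraries changed a call among the 9 genes, this is given with the result. In bulk RNA, fewer cells of a type and less RNA per cell cannot be told apart.

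In both peritoneal populations AP-3-84 raised the same 6 of the 9 genes: Srxn1, Txnrd1, Prdx1, Nqo1, Osgin1 and Sqstm1. Rises ranged from 1.29-fold for Prdx1 in ascites macrophages to 2.45-fold for Srxn1 in thioglycolate macrophages. The regulators Nfe2l2 and Keap1 and the gene of thioredoxin itself, Txn1, were not called in either population. A gene is called where edgeR's quasi-likelihood test gave an adjusted p (Benjamini-Hochberg, over all genes) below 0.05. At that threshold 1.79% of all genes were called in ascites macrophages (1.69% higher) and 4.32% in thioglycolate macrophages (2.51% higher). All 6 genes also had every treated library above every vehicle library, as 9.86% of all genes did in ascites and 12.7% in thioglycolate macrophages.

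Srxn1 encodes sulfiredoxin, which repairs overoxidized peroxiredoxins. In ascites macrophages it stood at 133, 135 and 135 CPM with vehicle and 296, 248 and 246 with AP-3-84, and in thioglycolate macrophages at 222, 227 and 234 against 557, 538 and 575. No treated library of either population overlapped a vehicle library. The log2 fold change was 0.97 (SE 0.07, adjusted p = 2.04e-07) in ascites and 1.29 (SE 0.07, adjusted p = 4.59e-09) in thioglycolate macrophages.

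Txnrd1 encodes the cytosolic selenoenzyme that uses NADPH to reduce thioredoxin. Its levels went from 193, 186 and 177 CPM to 381, 307 and 305 in ascites macrophages and from 371, 376 and 379 to 622, 672 and 682 in thioglycolate macrophages. Groups did not overlap, and the log2 fold changes were close to each other, 0.84 (SE 0.08) and 0.81 (SE 0.08), with adjusted p = 5.09e-06 and 7.13e-06. Their difference was 0.03, with a 95% interval from -0.19 to 0.24.

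Prdx1 encodes a peroxiredoxin that reduces hydrogen peroxide at the expense of thioredoxin. Ascites macrophages had 5104, 4933 and 5223 CPM with vehicle and 6477, 6340 and 6903 with AP-3-84. Thioglycolate macrophages had 5435, 5425 and 5209 CPM with vehicle and 8728, 8559 and 9133 with AP-3-84. All treated libraries lay above all vehicle libraries of their population, by log2 fold changes of 0.37 (SE 0.05, adjusted p = 0.000236) and 0.72 (SE 0.05, adjusted p = 1.83e-07). The fitted rise was smaller in ascites macrophages by 0.35 on the log2 scale, a difference that did not pass the test (adjusted p = 0.0831).

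Txn1, the substrate of that reductase and the reductant of that peroxiredoxin, was called in neither population. It was at 319 to 381 CPM with vehicle and 300 to 446 with AP-3-84 in ascites macrophages, and at 416 to 515 and 366 to 527 in thioglycolate macrophages. Groups overlapped in both, and the 95% intervals of the log2 fold change ran from -0.26 to 0.40 and from -0.39 to 0.28.

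**Figure D1:**
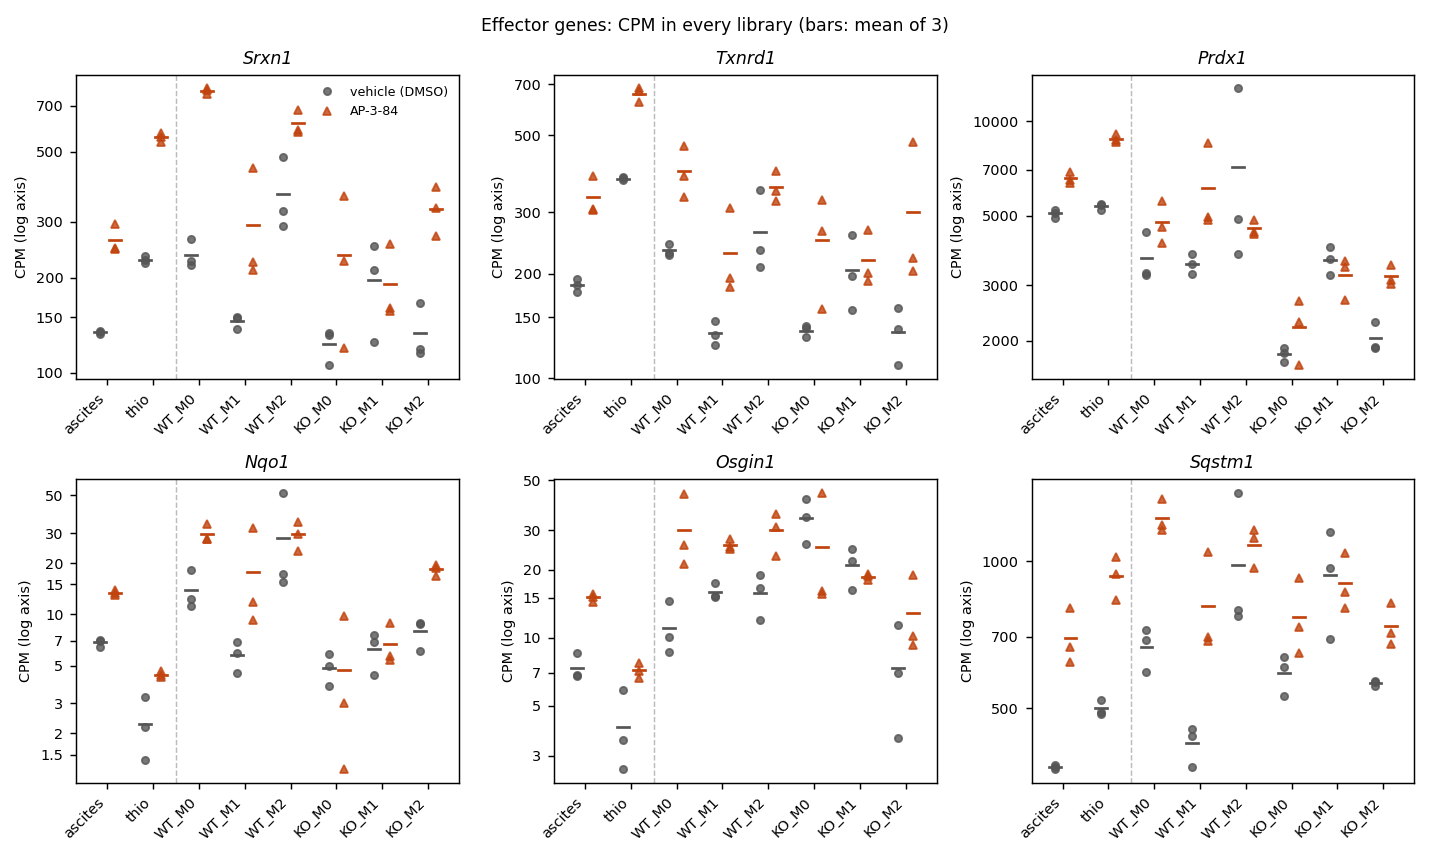
CPM on a log axis in every library for 6 effector genes across the 8 populations (ascites; thio, thioglycolate; WT or KO bone marrow-derived M0, M1 and M2), with circles for vehicle, triangles for AP-3-84 and bars for the mean of 3; the dashed line parts peritoneal from bone marrow-derived libraries. In ascites and thio every triangle lies above every circle in all 6 panels, while in KO_M1 the symbols overlap in all 6.

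Nqo1 encodes a quinone reductase that is a classical NRF2 target. It was low in these cells, at 6.41, 7.00 and 7.11 CPM with vehicle and 13.9, 13.4 and 12.9 with AP-3-84 in ascites macrophages. In thioglycolate macrophages it had 1.40, 2.19 and 3.25 CPM, from 22, 36 and 60 counts, against 4.39, 4.28 and 4.62. The groups did not overlap, and the log2 fold changes were 0.97 (SE 0.21, adjusted p = 0.0192) and 0.94 (SE 0.24, adjusted p = 0.031).

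Osgin1, an oxidative stress-induced growth inhibitor, went from 6.83, 6.75 and 8.52 CPM to 14.4, 15.2 and 15.6 in ascites macrophages and from 5.87, 2.61 and 3.53 to 7.75, 7.09 and 6.63 in thioglycolate macrophages. Again no library overlapped between groups. The log2 fold changes were 1.03 (SE 0.21, adjusted p = 0.0144) and 0.84 (SE 0.23, adjusted p = 0.0478).

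Sqstm1 encodes p62, an autophagy receptor that also binds KEAP1 and takes it away from NRF2. Levels rose from 383, 379 and 375 CPM to 801, 623 and 668 in ascites macrophages and from 521, 492 and 488 to 940, 833 and 1019 in thioglycolate macrophages. The 2 populations gave nearly the same log2 fold change, 0.88 (SE 0.09, adjusted p = 7.71e-06) and 0.90 (SE 0.08, adjusted p = 7.98e-06). Their difference was -0.02, with a 95% interval from -0.25 to 0.22.

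Of the regulators, Nfe2l2 was at 363 to 367 CPM with vehicle and 336 to 377 with AP-3-84 in ascites macrophages, with overlapping groups. In thioglycolate macrophages all 3 treated libraries (273, 301 and 299) lay below all 3 vehicle libraries (339, 327 and 315), with a log2 fold change of -0.17 (SE 0.06) that did not pass the test (adjusted p = 0.162), where 10.6% of all genes were apart and lower. Keap1 was at 197 to 211 CPM against 194 to 205 in ascites and 127 to 129 against 127 to 142 in thioglycolate macrophages. Its 95% intervals, from -0.13 to 0.11 and from -0.05 to 0.19, leave room only for small changes of the RNA. An antisense gene over Keap1, Gm16754, had 14.8 to 31.3 CPM in peritoneal libraries, and whether counting used strand is not stated, so its reads and those of Keap1 cannot be told apart there.

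Srxn1, Txnrd1, Prdx1 and Sqstm1 kept their calls in both peritoneal populations whichever library was left out. Nqo1 lost its call without any of 5 of the 6 ascites libraries and without any of 5 of the 6 thioglycolate libraries, and Osgin1 without any of 3 and of 5. With all 48 libraries in one fit only Sqstm1 in ascites macrophages and Srxn1 and Sqstm1 in thioglycolate macrophages were called. None of the 9 responses differed between ascites and thioglycolate macrophages at the threshold, which 0.118% of all genes passed.

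**Figure D2:**
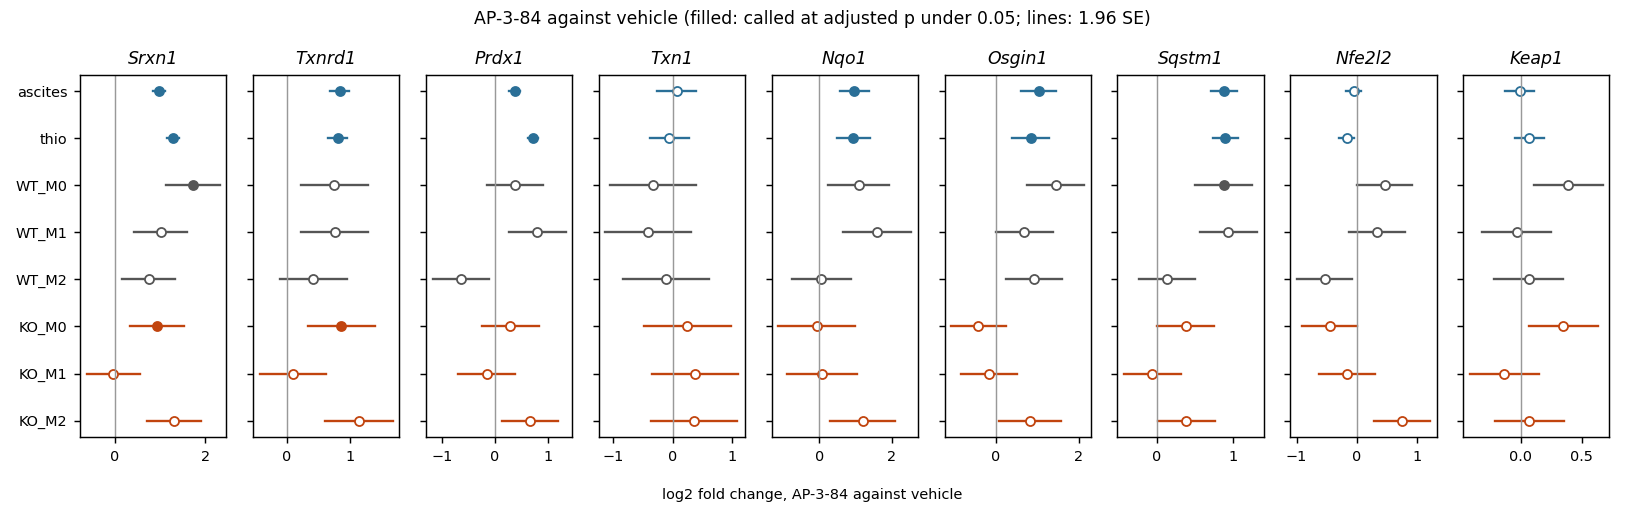
Log2 fold change of AP-3-84 against vehicle for each of the 9 genes (columns) in each population (lines), with 95% intervals; filled symbols passed the test, and each column has its own axis. Nqo1 and Osgin1 have wider intervals than Srxn1, Txnrd1, Prdx1 and Sqstm1 in the peritoneal populations, and Txn1, Nfe2l2 and Keap1 have no filled symbol.

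In WT bone marrow-derived macrophages Srxn1 and Sqstm1 rose in the M0 state, 3.31-fold and 1.84-fold, and none of the 9 genes was called in the M1 or M2 state. Called genes made up 0.144% of all genes in WT M0, 0.017% in WT M1 and 1.21% in WT M2.

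In WT M0, Srxn1 stood at 265, 226 and 219 CPM with vehicle and 795, 787 and 764 with AP-3-84, the highest treated level of Srxn1 among the bone marrow-derived populations. Its log2 fold change was 1.72 (SE 0.30, adjusted p = 0.0104). Sqstm1 went from 593, 689 and 724 CPM to 1341, 1186 and 1158, a log2 fold change of 0.88 (SE 0.19, adjusted p = 0.042). Both pairs of groups were apart.

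Of the other effectors in WT M0, Txnrd1 (227, 230 and 243 CPM against 467, 383 and 333), Nqo1 (18.2, 11.2 and 12.3 against 34.0, 27.5 and 27.5) and Osgin1 (10.1, 8.60 and 14.6 against 43.3, 25.7 and 21.2) also had treated libraries above all vehicle libraries. None of these passed the test, and the nearest was Osgin1 with a log2 fold change of 1.44 (SE 0.35, adjusted p = 0.0928). Keap1 was at 136, 153 and 151 CPM against 191, 208 and 178, groups that did not overlap either (adjusted p = 0.383). In all, 6 of the 9 genes had treated libraries above all vehicle libraries in WT M0, where 9.08% of all genes did. Nfe2l2 (213, 402 and 441 against 555, 508 and 399) and Prdx1 overlapped between groups. Srxn1 lost its call without any library but replicate 3 of the treated group, and Sqstm1 without any of the 6, and without the filter on low counts 5 genes were called.

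In WT M1, 7 of the 9 genes had every treated library above every vehicle library, against 9.60% of all genes, although none was called. Sqstm1 came nearest, with 438, 453 and 380 CPM against 701, 686 and 1043 and a log2 fold change of 0.94 (SE 0.19, adjusted p = 0.0587). Srxn1 was at 149, 150 and 138 CPM against 224, 211 and 443, Prdx1 at 3500, 3775 and 3256 against 4954, 4852 and 8524, and Nqo1 at 5.96, 6.89 and 4.53 against 9.29, 11.8 and 32.1. Replicate 3 of the treated group was the highest for each of these genes, above both of its mates by a wider gap than that between the mates. Txn1 was apart in the other direction, at 453, 466 and 367 CPM with vehicle against 245, 361 and 363. Without the filter on low counts 5 of the 9 genes were called in WT M1. The share of all genes called in that setting is not given here.

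In WT M2, Srxn1 (483, 326 and 290 CPM against 586, 580 and 680) and Osgin1 (12.0, 16.6 and 19.0 against 35.5, 31.1 and 23.1) were apart between groups, where 7.98% of all genes were apart and higher. Their log2 fold changes were 0.75 (SE 0.30, adjusted p = 0.274) and 0.92 (SE 0.35, adjusted p = 0.241). Prdx1 showed what 1 library did here, with 12716, 4869 and 3782 CPM with vehicle against 4387, 4433 and 4863. Its log2 fold change was -0.64 with all libraries and 0.07 without replicate 1 of the vehicle group, and neither value passed the test. Nfe2l2 was lower in all 3 treated libraries (213, 249 and 295 CPM against 339, 417 and 339), as 8.78% of all genes were, with a log2 fold change of -0.53 (SE 0.24, adjusted p = 0.351).

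In KO macrophages Srxn1 and Txnrd1 rose in the M0 state, 1.91-fold and 1.82-fold, and no gene of the 9 was called in M1 or M2. In KO M0 20.7% of all genes were called, so 2 of 9 is near the background, and 3 of 9 (Txnrd1, Sqstm1 and Keap1) were apart and higher, as 15.4% of all genes were. In KO M2 0.0509% of all genes were called, and in KO M1 none was: 206 genes (1.75%) had an unadjusted p under 0.05 there, and DESeq2 also called 0.

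In KO M0 the treated libraries differed among themselves. Srxn1 was at 106, 132 and 133 CPM with vehicle and 226, 120 and 361 with AP-3-84, so replicate 2 of the treated group lay within the vehicle range and replicate 3 far above it. The log2 fold change was 0.93 (SE 0.30, adjusted p = 0.0275). Txnrd1 was at 131, 139 and 141 CPM against 265, 159 and 325, groups that did not overlap, with a log2 fold change of 0.86 (SE 0.27, adjusted p = 0.0227). Both calls were lost without any of 5 of the 6 libraries, all but replicate 2 of the treated group, and with only the compared groups in the fit or a replicate block. The log2 fold changes moved most without replicate 3 of the treated group, to 0.49 and 0.63.

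For Osgin1, Nfe2l2 and Keap1 that library decided the call. Osgin1 was at 25.9, 34.2 and 41.4 CPM with vehicle in KO M0, and with AP-3-84 at 15.7 and nearly the same in replicates 1 and 2 and at 43.9 in replicate 3, a log2 fold change of -0.43 that did not pass the test. Without replicate 3 it was -1.09 and called lower. Nfe2l2 was at 326, 313 and 363 CPM against 253, 164 and 318, a log2 fold change of -0.45 that became -0.68 and was called lower without that library. Keap1 was at 148, 161 and 174 CPM against 220, 210 and 185, apart between groups, a log2 fold change of 0.35 that became 0.42 and was called without it. Fibroblast markers (5 genes) summed to 161 to 288 CPM in KO M0 vehicle libraries and 50.6 to 223 in the treated ones, against 22.5 to 26.2 in WT M0 vehicle libraries, and their part in these results was not tested.

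In KO M1, Srxn1 was at 251, 125 and 211 CPM with vehicle and 256, 157 and 160 with AP-3-84, a log2 fold change of -0.04 with a 95% interval from -0.62 to 0.55. Txnrd1 was at 197, 157 and 258 CPM against 267, 190 and 201, a log2 fold change of 0.10 with an interval from -0.42 to 0.62. All 9 genes overlapped between the groups, and 2.79% of all genes were apart and higher. For Nqo1 the interval was wider, from -0.91 to 1.05. Responses of peritoneal and bone marrow-derived populations were not tested against each other.

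In KO M2, 5 of the 9 genes had every treated library above every vehicle library, against 6% of all genes. Srxn1 went from 166, 119 and 115 CPM to 272, 332 and 388, Txnrd1 from 139, 160 and 109 to 204, 223 and 477, and Nqo1 from 6.10, 8.78 and 8.93 to 18.8, 19.6 and 16.7. Log2 fold changes were 1.31 (SE 0.30) for Srxn1 and 1.15 (SE 0.27) for Txnrd1, both with adjusted p = 0.11. Srxn1, Txnrd1 and Nfe2l2 passed the test once replicate 1 of the vehicle group was left out, the latter pair with log2 fold changes of 1.16 and 1.14. Without replicate 1 of the treated group Srxn1 (1.45) and Txnrd1 (1.38) passed it. Nfe2l2 had 411, 213 and 214 CPM in the vehicle group, replicate 1 being the high one, against 401, 465 and 549. DESeq2 called Srxn1 and Txnrd1 in KO M2.

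Counted over the 24 treated libraries, Srxn1 lay above all 3 vehicle libraries of its own population in 21, Txnrd1 in 20, Sqstm1 in 18, Nqo1 and Osgin1 in 17 and Prdx1 in 16. For Keap1 this number was 10, for Nfe2l2 9, with 12 libraries below all vehicle libraries, and for Txn1 3, with 6 below. Over the 8 populations the median log2 fold change was 0.99 for Srxn1 and 0.79 for Txnrd1, against 0.0086 for Txn1 and -0.11 for Nfe2l2. Over all genes the median within a population ran from -0.029 in KO M0 to 0.025 in thioglycolate macrophages. The treated libraries of a population share their vehicle libraries, so these counts are a description. Matching counts over all genes are not given here, so the counts have no background beside them.

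**Figure D3:**
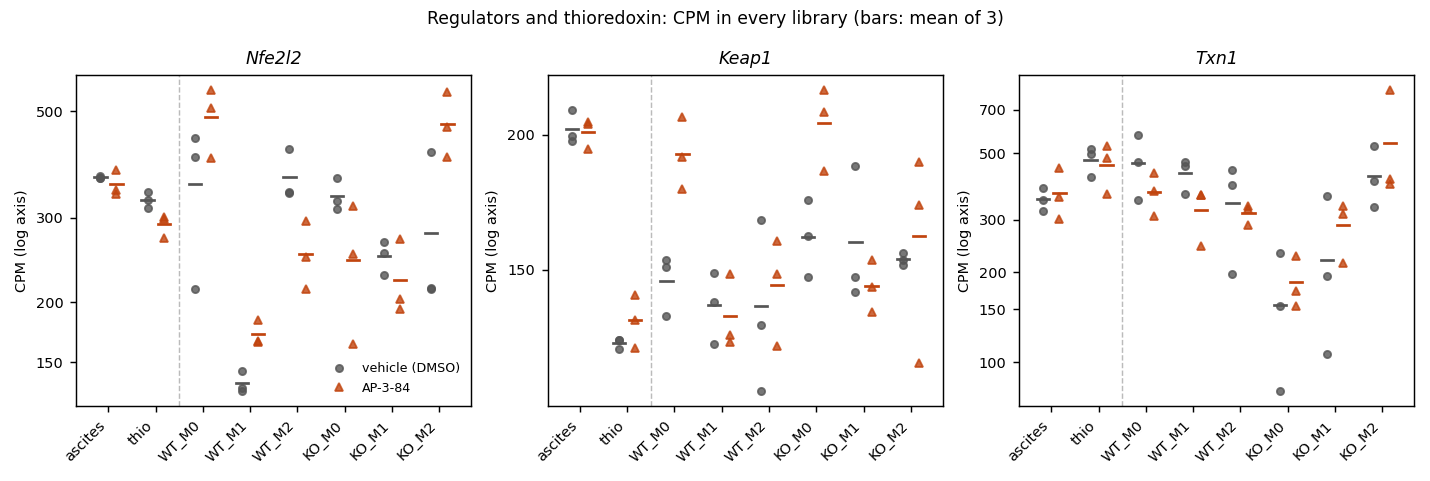
CPM on a log axis in every library for Nfe2l2, Keap1 and Txn1, with circles for vehicle, triangles for AP-3-84 and bars for the mean of 3. Nfe2l2 is lowest in WT_M1, at 131 to 143 CPM with vehicle, and the triangles lie above all circles there but below all circles in thio and WT_M2.

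The response to AP-3-84 differed between populations for 2 genes. In each of the comparisons concerned 1 of the 9 genes was called. That exceeds the share of all genes only for KO M2 against WT M2. Osgin1 responded differently in KO M0 and WT M0, with a difference of the log2 fold changes of -1.87 (SE 0.49, adjusted p = 0.00853), where 17% of all genes differed. It went from 10.1, 8.60 and 14.6 CPM to 43.3, 25.7 and 21.2 in WT M0 and from 25.9, 34.2 and 41.4 to between 15.7 and 43.9 in KO M0. Nfe2l2 responded differently in KO M2 and WT M2, by 1.29 (SE 0.33, adjusted p = 0.0383, with 1.77% of all genes called), and in KO M2 and KO M0, by 1.21 (SE 0.33, adjusted p = 0.0135, with 15.8% called). The difference for Osgin1 stayed past the threshold whichever library was left out, but neither it nor those of Nfe2l2 passed with only the compared groups in the fit. That of Nfe2l2 between KO M2 and KO M0 was lost without replicate 2 of treated KO M0 (0.98) or replicate 3 of KO M2 vehicle (1.04), and that of Nfe2l2 between KO M2 and WT M2 was lost without any of 7 of the 12 libraries. Those 2 comparisons of Nfe2l2 share the KO M2 libraries.

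For the remaining genes and pairs of populations the difference did not pass the test, which does not show that the responses were alike. Srxn1 had a difference of -0.98 (SE 0.42, adjusted p = 0.361) between WT M2 and WT M0, where 0.136% of all genes were called, and of -1.04 (SE 0.42, adjusted p = 0.671) between KO M1 and WT M1, where 0.00849% were. Between WT M1 and WT M0, with 0.0255% of all genes called, the 95% interval for Sqstm1 ran from -0.47 to 0.58. Between KO M1 and KO M0, with 6.12% called, that of Srxn1 ran from -1.80 to -0.14 (adjusted p = 0.173). Without replicate 3 of the treated KO M0 group, Srxn1 (-1.24), Nqo1 (-2.26) and Nfe2l2 (-1.15) also differed between KO M0 and WT M0, and Nqo1 (2.38) and Osgin1 (1.92) between KO M2 and KO M0. Without replicate 1 of KO M2 vehicle, Osgin1 differed between KO M2 and KO M0 (1.72) and Prdx1 between KO M2 and WT M2 (1.40).

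Without AP-3-84, the peritoneal populations differed in 6 of the 9 genes, and not in one direction. Nqo1, Osgin1 and Keap1 were higher in ascites macrophages, while Srxn1, Txnrd1 and Sqstm1 were lower, in a comparison that called 33.7% of all genes. Txnrd1 had 193, 186 and 177 CPM in ascites and 371, 376 and 379 in thioglycolate macrophages, a log2 difference of -1.02 (SE 0.08, adjusted p = 1.07e-08), and Srxn1 differed by -0.76 (SE 0.07, adjusted p = 9.67e-08). Nqo1, at 6.41 to 7.11 against 1.40 to 3.25 CPM, differed by 1.57 (SE 0.23, adjusted p = 3.24e-05). Keap1, at 197 to 211 against 127 to 129 CPM, differed by 0.66 (SE 0.06, adjusted p = 1.18e-07). Markers of ovarian epithelium, ID8 or mesothelium (9 genes) summed to 211 to 250 CPM in ascites and 2.98 to 4.98 in thioglycolate vehicle libraries, and their part in these differences was not tested.

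After AP-3-84 the 2 populations kept that order for Srxn1 and Txnrd1. Thioglycolate macrophages with vehicle (371 to 379 CPM of Txnrd1) lay within the range of treated ascites macrophages (305 to 381), and for Srxn1 (222 to 234) just below it (246 to 296). On the log2 scale the difference between the vehicle groups was smaller than the change with treatment in ascites macrophages for Srxn1 (-0.76 beside 0.97) and larger for Txnrd1 (-1.02 beside 0.84).

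Between vehicle groups of WT cells, 3 of the 9 genes were called from M0 to M1 and 2 from M0 to M2. From M0 to M1, Nfe2l2 fell by 1.38 on the log2 scale (SE 0.24, adjusted p = 0.000185), from 213, 402 and 441 CPM to 131, 132 and 143, and Sqstm1 and Txnrd1 were lower too (-0.66, adjusted p = 0.0156, and -0.79, adjusted p = 0.0438), where 15.5% of all genes were called. The call of Txnrd1 was lost without any of the 6 libraries, and that of Sqstm1 without replicate 3 of WT M0 or of WT M1 vehicle. From M0 to M2, with 23.4% of all genes called, Prdx1 and Sqstm1 were higher (0.96, adjusted p = 0.0105, and 0.56, adjusted p = 0.0304), but were 0.23 and 0.22 without replicate 1 of WT M2 vehicle, and not called. The call of Sqstm1 was also lost without replicate 1 or replicate 2 of WT M0 vehicle, and that of Prdx1 without the latter.

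In KO cells the M1 state had higher Prdx1 (1717, 1891 and 1826 CPM in M0 against 3974, 3250 and 3642, a log2 difference of 1.00, adjusted p = 0.00394) and higher Sqstm1 (0.66, adjusted p = 0.00513, not called at 0.50 without replicate 1 of KO M1 vehicle) than M0, where 44.5% of all genes were called. The M2 state had higher Txn1 (231, 155 and 80.1 CPM in M0 against 527, 331 and 403, a log2 difference of 1.44, adjusted p = 0.00404) and lower Osgin1 (25.9, 34.2 and 41.4 against 11.4, 3.60 and 6.94, -2.22, adjusted p = 2.14e-05), where 38% were called. Without replicate 1 of KO M2 vehicle Nfe2l2 was also called lower in KO M2 than in KO M0 (-0.64). Shares this high mean that a call of a single gene is common in both comparisons.

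The p53 genotype went with lower effector levels in 2 of the 3 states. In M0, with 33.2% of all genes called, KO vehicle libraries were lower than WT for Srxn1, Txnrd1, Txn1, Prdx1 and Nqo1 and higher for Osgin1. Prdx1 had 4444, 3290 and 3239 CPM in WT and 1717, 1891 and 1826 in KO, a log2 difference of -1.01 (SE 0.27, adjusted p = 0.0053). Txn1, at 467, 577 and 350 against 231, 155 and 80.1 CPM, differed by -1.58 (SE 0.38, adjusted p = 0.00239). Srxn1 differed by -0.94 (adjusted p = 0.0176) and Nqo1 by -1.51 (adjusted p = 0.0186). Osgin1, at 10.1, 8.60 and 14.6 against 25.9, 34.2 and 41.4 CPM, was the exception, at 1.61 (SE 0.35, adjusted p = 0.000835). For all 6 genes the WT and KO libraries did not overlap, as was so for 22.9% of all genes lower and 24.8% higher in KO. Txnrd1 lost the call without any of the 6 libraries, Srxn1 without replicate 1 of WT or of KO, and Nqo1 without replicate 1 of WT or replicate 3 of KO, and fibroblast markers differed between these groups as given above.

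In M2, where 3.56% of all genes were called, 5 genes were lower in KO than in WT vehicle libraries. Prdx1 had 12716, 4869 and 3782 CPM in WT and 2295, 1896 and 1914 in KO, a log2 difference of -1.81 (SE 0.28, adjusted p = 0.000272). Srxn1, at 483, 326 and 290 against 166, 119 and 115 CPM, differed by -1.46 (SE 0.30, adjusted p = 0.00673). Txnrd1 (-0.95), Nqo1 (-1.82) and Sqstm1 (-0.80) were called as well, but not without replicate 1 of WT M2 vehicle, where they were -0.71, -1.05 and -0.49. Without that library Prdx1 was -1.10 and Srxn1 -1.22, both still called. Prdx1 was called whichever library was left out, and was the only one called without replicate 2 or replicate 3 of KO M2 vehicle, where Srxn1 was -1.38 and -1.36. Without replicate 1 of KO M2 vehicle Txnrd1 (-0.97) lost its call, and Osgin1 (-1.59) and Nfe2l2 (-0.77) were called lower in KO M2 than in WT M2. With only the 6 libraries of these groups in the fit none of the 5 was called. Macrophage markers (8 genes) summed to 24997 to 30977 CPM in WT M2 and 5970 to 18476 in KO M2 vehicle libraries, and their part in these differences was not tested.

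In M1, where 11.6% of all genes were called, the picture was another one. Sqstm1 was higher in KO than in WT vehicle libraries (1147, 692 and 970 against 438, 453 and 380 CPM, a log2 difference of 1.14, SE 0.19, adjusted p = 0.000203), and so was Nfe2l2 (253, 267 and 228 against 131, 132 and 143, a log2 difference of 0.88, SE 0.24, adjusted p = 0.0154). The call of Nfe2l2 was lost without replicate 1 or replicate 2 of WT M1 vehicle. Srxn1 and Prdx1 overlapped between the genotypes, with log2 differences of 0.43 and 0.05 that did not pass the test. Txnrd1 was higher in KO without overlap (197, 157 and 258 against 134, 146 and 125 CPM), but did not pass the test. It was called higher with all 48 libraries in one fit and with only the compared groups in it. Scaling by total counts and leaving out the filter on low counts called it higher as well. Txn1 was lower in KO without overlap, as in M0 (106, 359 and 194 against 453, 466 and 367 CPM), but did not pass the test. It was called lower by DESeq2, without the filter on low counts, and without replicate 2 of KO M1 vehicle (-1.49). Macrophage markers summed to 44015 to 46963 CPM in WT M1 and 16316 to 25726 in KO M1 vehicle libraries, and fibroblast markers to 16.6 to 41.9 and 89.9 to 123, and their part was not tested either. Whether the genotype difference itself differed between the M1 state and the others was not tested.

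**Figure D4:**
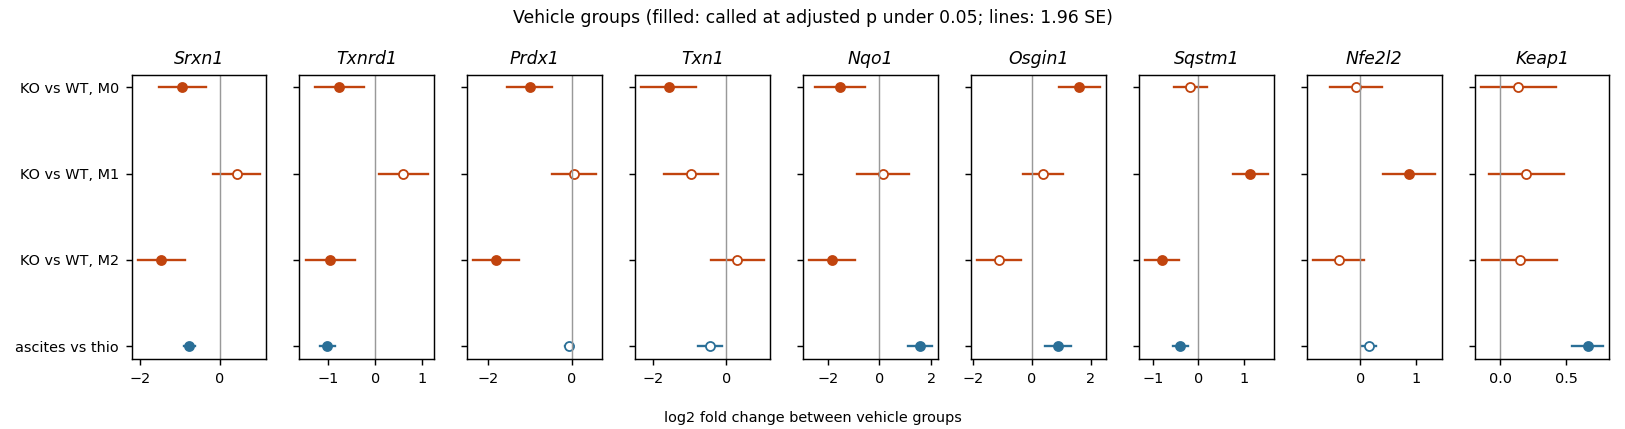
Log2 difference between vehicle groups for each of the 9 genes (columns), KO minus WT in M0, M1 and M2 and ascites minus thioglycolate, with 95% intervals; filled symbols passed the test, and each column has its own axis. Srxn1, Txnrd1, Prdx1 and Nqo1 have filled symbols below 0 for M0 and M2 and open ones above 0 for M1.

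The order of the vehicle levels over the 6 bone marrow-derived populations shows the spread behind these tests. For Srxn1 it ran from WT M2 (367 ± 103 CPM, SD, n = 3) through WT M0 (237 ± 24.7), KO M1 (196 ± 64.4), WT M1 (145 ± 6.75) and KO M2 (133 ± 28.6) to KO M0 (124 ± 15.4), and only WT M2 and WT M0 did not overlap as neighbours. For Txnrd1 the order was WT M2, WT M0, KO M1, KO M0, KO M2 and WT M1, from 264 ± 74.9 to 135 ± 10.7, and only KO M1 and KO M0 were apart. Prdx1 ran from 7122 ± 4875 in WT M2 to 1811 ± 88.2 in KO M0. Its neighbours were apart below WT M1 and below KO M2. Keap1 had the narrowest range, from 161 ± 13.2 CPM in KO M0 to 139 ± 26.0 in WT M2, and all neighbours overlapped.

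Sequence shared with other genes was looked for on the transcript strand only, which does not show antisense overlap such as that given for Keap1 above. In the last 500 bases of their transcripts, Prdx1 shared 464 of its 1570 stretches of 30 bases (29.6%) with other annotated genes, so its counts depend on how such reads were assigned, and Sqstm1 shared 1 and the other 7 genes none. Mrnip, which overlaps Sqstm1 on the opposite strand, had at most 7.57 CPM in any library. Eid3, which lies within Txnrd1 on the same strand, had at most 7.30 CPM. The genes lie at chr2:152105516-152111376 (Srxn1), chr10:82833951-82897712 (Txnrd1), chr4:57943373-57956411 (Txn1), chr4:116685544-116700822 (Prdx1), chr8:107388225-107403206 (Nqo1), chr8:119434124-119446256 (Osgin1), chr11:50199366-50210827 (Sqstm1), chr2:75675513-75704641 (Nfe2l2) and chr9:21229730-21239361 (Keap1) in GRCm38, which need not be the build behind the counts.

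Other genes of the pathway were followed as 4 lists. The largest holds 56 further genes of NRF2-linked detoxification, glutathione and NADPH supply. In ascites macrophages 18 of its 52 tested genes rose and none fell, with a median log2 fold change of 0.32 against -0.0048 over all genes. In thioglycolate macrophages 20 of 52 rose and none fell, with a median of 0.22 against 0.025. Of all genes, 1.69% rose in ascites and 2.51% in thioglycolate macrophages. Without single libraries the numbers of rises were 15 to 19 and 17 to 20, and with all 48 libraries in one fit they were 3 and 6.

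The largest rises in ascites macrophages were Hmox1, heme oxygenase (31.8 to 98.8 CPM, 1.63 ± 0.13 SE on the log2 scale, adjusted p = 4.16e-06), and Ptgr1, a prostaglandin and enone reductase (1.19 ± 0.11, adjusted p = 4.28e-06). In thioglycolate macrophages they were Slc6a9, a glycine transporter (0.311 to 2.86 CPM, 3.16 ± 0.40, adjusted p = 0.000134), and Slc7a11, the cystine importer (11.1 to 36.5 CPM, 1.72 ± 0.13, adjusted p = 3.91e-07). Both subunits of the enzyme that limits glutathione synthesis, picked here after their values were seen, rose in both populations: Gclm by 1.14 and 1.16 and Gclc by 0.93 and 0.78 in ascites and thioglycolate macrophages. Glutathione reductase, Gsr, rose by 0.67 and 0.57 and catalase, Cat, by 0.79 and 0.64, both likewise picked after their values were seen.

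In bone marrow-derived macrophages the list had fewer calls. In WT M0 1 of 48 tested genes rose, Gclc (38.5 to 143 CPM, 1.89 ± 0.32, adjusted p = 0.00642), a call that was lost without any of 3 libraries, and the list's median was 0.33. There 0.144% of all genes were called. None was called in WT M1, WT M2, KO M1 or KO M2, with medians of 0.36, 0.018, -0.076 and 0.32 against 0.013, 0.000985, -0.018 and 0 over all genes. Without replicate 1 of KO M2 vehicle 8 genes of the list rose in KO M2, and 4 without replicate 1 of its treated group. In KO M0 5 rose, where 20.7% of all genes were called, so the list's calls were below the background. Among the rises were Slc7a11 (6.19 to 29.4 CPM, 2.22 ± 0.55, adjusted p = 0.00541) and Abcc4, an efflux transporter (1.15 ± 0.34, adjusted p = 0.015, lost without any of 4 libraries). A single gene fell there, Gstm1, a glutathione transferase (341 to 154 CPM, -1.15 ± 0.40, adjusted p = 0.0428, lost without any of 5 libraries), and 9 fell without replicate 3 of the treated group.

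**Figure D5:**
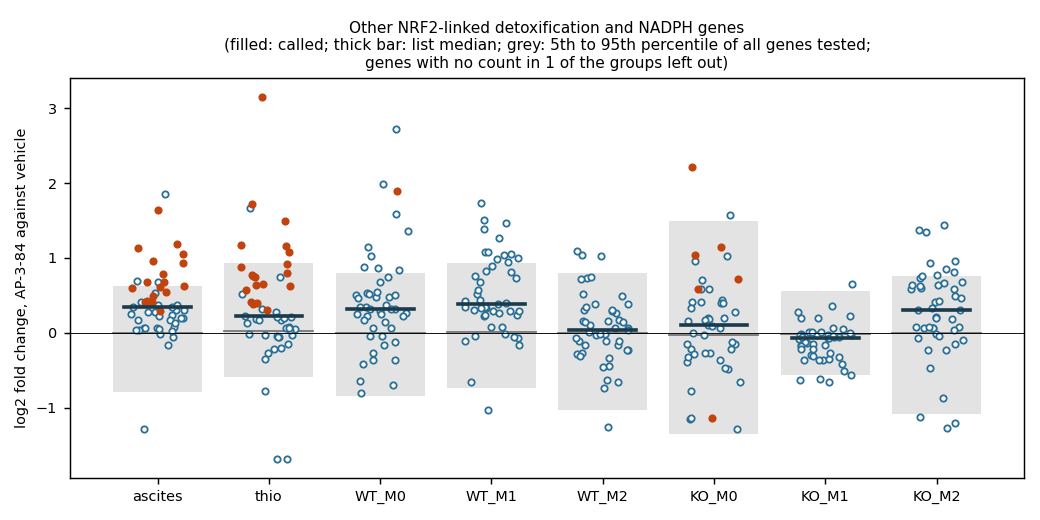
Log2 fold change of AP-3-84 against vehicle for the further genes of NRF2-linked detoxification and NADPH supply (points), with filled points for called genes, thick bars for the list's median and grey boxes for the central 90% of all genes tested. Filled points are frequent in ascites and thio (18 and 20 genes) and the bars lie above 0 in every population but KO_M1.

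The list of 28 further thioredoxins, peroxiredoxins and thiol reductases was read in the same way. In ascites macrophages 1 rose and none fell, with a median of 0.035. That gene was Prdx6, a peroxiredoxin that uses glutathione (140 to 194 CPM, 0.47 ± 0.07, adjusted p = 0.000726). In thioglycolate macrophages 3 rose, among them Prdx6 again (0.77 ± 0.07, adjusted p = 5.45e-06), and Sesn1, a sestrin, fell (-0.67 ± 0.18, adjusted p = 0.048), a call lost without any of 5 libraries. None was called in WT M0, WT M1, KO M1 or KO M2, and in WT M2 1 fell, Prdx5 (518 to 224 CPM, -1.21 ± 0.23, adjusted p = 0.00418), a call that was lost without replicate 1 of either group. In KO M0, where 20.7% of all genes were called, 6 rose and 3 fell (3 and 1 without replicate 2 of the treated group), including glutaredoxin, Glrx (59.2 to 168 CPM, 1.51 ± 0.37, adjusted p = 0.00527), Sesn2 (1.21 ± 0.28, adjusted p = 0.00225) and Sesn3 (-2.59 ± 0.62, adjusted p = 0.00294).

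Of 22 regulators of NRF2, none was called in ascites macrophages, and 1 rose in thioglycolate macrophages, Mafg, which encodes a small MAF partner of NRF2 (178 to 248 CPM, 0.48 ± 0.08, adjusted p = 0.00186). In WT M2 1 fell, Maff, another small MAF gene (14.5 to 5.28 CPM, -1.47 ± 0.35, adjusted p = 0.0281), a call lost without any of 4 libraries. In KO M0 6 of 21 rose and 1 fell, where 20.7% of all genes were called, and the latter was the nuclear receptor gene Rxra (-0.82 ± 0.21, adjusted p = 0.00533). Without replicate 1 or replicate 2 of the treated group 3 rose.

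Of 19 autophagy receptors and partners of p62, Gabarapl1, which encodes an ATG8-family protein, rose in ascites (0.54 ± 0.08, adjusted p = 0.000901) and thioglycolate macrophages (0.41 ± 0.08, adjusted p = 0.0063). In thioglycolate macrophages Tax1bp1 rose as well (0.25 ± 0.07, adjusted p = 0.0344, lost without any of 5 libraries) and Ncoa4, the ferritin receptor, fell (-0.44 ± 0.08, adjusted p = 0.00529). In KO M0 1 rose and 7 fell (4 without replicate 1 or replicate 2 of the treated group, 1 with only the compared groups in the fit), with a median of -0.36, led by Calcoco1 (52.9 to 11.1 CPM, -2.26 ± 0.42, adjusted p = 0.00032) and Ncoa4 (-1.05 ± 0.23, adjusted p = 0.00177). Calls over all genes made up 20.7% in KO M0. Sqstm1, with a log2 fold change of 0.38 there, was not among the genes that fell.

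Between vehicle groups the detoxification list had more lower than higher calls in KO against WT and in ascites against thioglycolate macrophages, and calls in both directions between states. In ascites against thioglycolate macrophages 24 of 52 were lower and 10 higher, with a median of -0.26 against 0.046 over all genes, led by Mt2, a metallothionein (-2.06 ± 0.17, adjusted p = 3.82e-08), and Gstm1 (308 to 87.2 CPM, -1.82 ± 0.08, adjusted p = 1.4e-11). In KO against WT it was 17 of 48 lower and 2 higher in M0 (median -0.36), 5 lower and none higher in M1 (median -0.09), and 17 lower and none higher in M2 (median -0.74). Of all genes, 33.7% were called between the peritoneal populations, and 33.2%, 11.6% and 3.56% between the genotypes in M0, M1 and M2. The list's count in M1 is near that share, and its count in M0 not far above it. Gsta3, a glutathione transferase, was lowest against WT in both M0 (38.5 to 4.35 CPM, -3.14 ± 0.55, adjusted p = 9.85e-05) and M2 (27.6 to 3.05 CPM, -3.16 ± 0.57, adjusted p = 0.00186). In M2 the number lower was 11 without replicate 1 of WT M2 vehicle or replicate 2 of KO M2 vehicle, 5 without replicate 3 of KO M2 vehicle and 0 with only the compared groups in the fit. In M0 it was 11 without replicate 1 of WT M0 vehicle. Against M0, 7 were higher and 10 lower in WT M1 (median -0.15), 12 higher and 5 lower in WT M2 (median 0.19), 13 higher and 10 lower in KO M1 (median 0.13) and 8 higher and 10 lower in KO M2 (median -0.09). The shares of all genes called were 15.5%, 23.4%, 44.5% and 38% in the same order. The list's counts in KO M1 and KO M2 are therefore near the background. The other lists did not share one direction between vehicle groups. In ascites against thioglycolate macrophages 11 genes of the thioredoxin list were higher and 4 lower. There it was 8 higher and 6 lower for the regulators, and 0 and 10 for the autophagy list. In KO against WT M0 the numbers were 1 and 7, 7 and 5, and 7 and 0 in that order. Their other vehicle comparisons are not given here.

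Patterns over the 12 bone marrow-derived groups, as means of log2 CPM, were set against those of 8123 genes. Srxn1 was most like Gss, glutathione synthetase (r = 0.953), and Txnrd1 (r = 0.948), and Nqo1 was most like Gss too (r = 0.905). The closest gene to Txn1 was Gm10221 (r = 0.981), to Prdx1 Mfap3l (r = 0.911), to Osgin1 Ap3m2 (r = 0.907), to Sqstm1 Sfn (r = 0.872), to Nfe2l2 Rabep1 (r = 0.954) and to Keap1 Taok3 (r = 0.896). Among the 9 genes Srxn1 went with Txnrd1, Nqo1 (r = 0.866) and Sqstm1 (r = 0.800), and less with Nfe2l2 (r = 0.467) and Keap1 (r = 0.178). These values describe 12 points that share library preparation and, in pairs, the same populations.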

How the data were processed

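The authors deposited whole-number counts per gene ID for 48 libraries. Libraries were made with the QuantSeq FWD 3′ kit from 100 ng of RNA and sequenced as single reads of 75 bases, per the labels' protocols. The submitters' processing notes name RSEM, Bowtie2 and DESeq2 without versions or roles, so the counts may be rounded estimates. Neither genome build, gene models nor handling of molecular identifiers is stated in what was available here. Symbols were found for all but 193 of 51789 gene IDs.

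Counts were tested with edgeR 4.0.16 (R 4.3.3): filterByExpr by group, TMM scaling, robust quasi-likelihood test, 1 mean per group and no block, in separate fits of 12 peritoneal libraries (16955 genes, biological coefficient of variation 0.168) and 36 bone marrow-derived libraries (11779 genes, 0.225). P-values are two-sided, with Benjamini-Hochberg adjustment over all genes of a comparison. There were 24 comparisons: 8 of AP-3-84 with vehicle, 8 between such responses and 8 between vehicle groups. CPM use the TMM-scaled library sizes. No pair of replicates agreed within sampling noise (chi-square per gene of 2.51 or more). The steps were tested on simulated data.

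The members and lists were chosen with earlier results of these data known. Besides the 9 genes, the text names from each list up to 2 called genes with the largest change in each direction of an AP-3-84 or vehicle comparison, leaving some out, and the genes closest in pattern. A gene with no count in a group has no fold change here. Replicate numbers did not pair the samples: no population had a correlation of deviations above 0.1 in all 3 pairs. Alternatives were other scalings, no filter, DESeq2 1.42.0, other sets of libraries in the fit, a replicate block and leaving out each library.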

Additional observations from a re-analysis of the deposited data

Results flagged for a closer look

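Among the 9 genes, 3 differences between responses to AP-3-84 passed edgeR's quasi-likelihood test of the difference itself, and their cause was not tested. For Osgin1 the log2 fold change was lower by 1.87 in KO M0 than in WT M0 (difference -1.87). For Nfe2l2 it was higher by 1.21 in KO M2 than in KO M0 and by 1.29 in KO M2 than in WT M2, and both of these rest on the same KO M2 libraries. Over all genes, 17% differed between KO M0 and WT M0 and 15.8% between KO M2 and KO M0. In those comparisons 1 call among 9 genes is no more than the background. Between KO M2 and WT M2 1.77% of all genes differed. In KO M2 vehicle, replicate 1 had 411 CPM of Nfe2l2 and the others 213 and 214. With only the libraries of the compared groups in the fit none of the 3 passed the test. That of Osgin1 passed whichever of its 12 libraries was left out. That of Nfe2l2 between KO M2 and KO M0 was lost without 2 of 12 libraries, and that between KO M2 and WT M2 without 7 of 12, under scaling by total counts and with a replicate block.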

How the results depend on the processing

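Numbers here are how many of the 9 genes were called, unless a log2 fold change is named. The shares of all genes called under each alternative are not given, so a shift in these numbers need not be particular to the 9 genes. In ascites and thioglycolate macrophages every alternative left the sign of the 6 called responses as it was, and with all 48 libraries in one fit 1 and 2 of them were called. That fit called 1 in WT M1 and 2 in KO M2 for AP-3-84, 2 for the response of KO M0 minus WT M0 and 2 for KO M2 minus WT M2, and between vehicle groups 5 for WT M1 minus WT M0 and 4 for KO M1 minus KO M0. Scaling by total counts called 1 in WT M0 and 1 in KO M0, for responses 1 for ascites minus thioglycolate, 2 for KO M0 minus WT M0 and 0 for KO M2 minus WT M2, and between vehicle groups 5 for WT M1 minus WT M0, 1 for WT M2 minus WT M0, 4 for KO M1 minus WT M1 and 3 for KO M2 minus WT M2. It turned the uncalled log2 fold changes of Txn1 in WT M2 to 0.0026 and of Srxn1 in KO M1 to 0.0133.

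Without the filter on low counts 5 were called in WT M0, 5 in WT M1, 3 in WT M2 and 5 in KO M2, for responses 1 for ascites minus thioglycolate, 3 for WT M2 minus WT M0, 1 for KO M1 minus KO M0, 2 for KO M2 minus KO M0, 3 for KO M0 minus WT M0, 3 for KO M1 minus WT M1 and 2 for KO M2 minus WT M2, and between vehicle groups 5 for WT M1 minus WT M0, 4 for WT M2 minus WT M0, 6 for KO M1 minus KO M0 and 4 for KO M1 minus WT M1. DESeq2 called 1 in WT M1 and 2 in KO M2, and for responses 1 for ascites minus thioglycolate, 2 for KO M0 minus WT M0 and 2 for KO M2 minus WT M2. With only the compared groups in the fit 4 were called in WT M0, 1 in WT M1 and 0 in KO M0, for responses 0 for KO M2 minus KO M0, KO M0 minus WT M0 and KO M2 minus WT M2, and between vehicle groups 5 for WT M1 minus WT M0, 1 for WT M2 minus WT M0, 6 for KO M1 minus KO M0 and 0 for KO M2 minus WT M2. The cause of these shifts was not tested.

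With the replicate number as a block 1 was called in WT M0, 0 in KO M0 and 0 for the response of KO M2 minus WT M2. The labels do not say that these numbers pair samples, and the check of pairing found no population in which all 3 pairs deviated together.

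Leaving out 1 library gave 0 to 1 called in WT M0, WT M1 and WT M2, and 0 to 3 in KO M0 and in KO M2. For responses it gave 0 to 3 for KO M2 minus KO M0, 1 to 4 for KO M0 minus WT M0 and 0 to 2 for KO M2 minus WT M2. Between vehicle groups it gave 1 to 2 for WT M1 minus WT M0, 0 to 3 for WT M2 minus WT M0, 1 to 4 for KO M1 minus KO M0, 3 to 5 for KO M0 minus WT M0, 1 to 3 for KO M1 minus WT M1 and 1 to 6 for KO M2 minus WT M2. Log2 fold changes that changed sign in this way ran, for AP-3-84 in ascites macrophages, from -0.0904 to 0.1802 for Txn1 and -0.0463 to 0.02 for Keap1, and in thioglycolate macrophages from -0.1671 to 0.082 for Txn1. They ran in WT M1 from -0.1168 to 0.0086 for Keap1, and in WT M2 from -0.3885 to 0.1056 for Txn1, -0.9397 to 0.0675 for Prdx1, -0.2263 to 0.8361 for Nqo1, -0.005 to 0.4536 for Sqstm1 and -0.0563 to 0.2245 for Keap1. In KO M0 they ran from -0.0567 to 0.6629 for Txn1 and -1.1748 to 0.3955 for Nqo1, and in KO M1 from -0.3052 to 0.1796 for Srxn1, -0.067 to 0.3044 for Txnrd1, -0.1806 to 0.2337 for Nqo1 and -0.2266 to 0.1166 for Sqstm1. In KO M2 they ran from -0.0407 to 0.5603 for Txn1 and -0.0394 to 0.2521 for Keap1.

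The bone marrow-derived libraries are shallower and vary more, so Nqo1 and Osgin1 rest on few counts there. Leaving out a library leaves 2 in its group.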
